A study of Drosophila melanogaster with 20 samples.

Results

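The windows described here are those of the autosomal arms 2L, 2R, 3L and 3R in which the H3K27me3 signal of larval salivary glands was higher in SuUR mutants than in wild type by 0.6 or more on the log2 scale. Of 19230 windows on these arms, 418 were chosen in this way, or 2.17%, out of 27631 windows in the whole profile. The opposite difference, 0.6 or more higher in wild type, was found in 266 arm windows, or 1.38%. The members were chosen on the H3K27me3 values themselves, so their H3K27me3 levels are a description and not a test. Each window spans 50 kb and neighbouring windows are 5 kb apart, so neighbours share 90% of their sequence and windows are not independent of each other. Merging of consecutive windows gave 164 runs.

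Salivary glands of 3rd instar larvae were taken from wild type (labelled yw, y,w flies) and from SuUR mutants, both kept at 23 °C. The labels name 20 pairs of glands per sample, and the methods text gives another number. H3K27me3 was precipitated with the CST #9733 antibody and H3K27me2 with a Millipore antibody, and each profile gives log2 of the ChIP/input ratio from samples listed as 1 ChIP and 1 input. The 4 profiles are thus listed with 8 samples. The methods mention biological replicates for ChIP-seq, without saying whether these gland profiles pool them, so no replicates can be told apart and no p-value is given for any difference. The authors made the distribution of values the same in both genotypes for each antibody. Therefore a higher value in SuUR mutants means a higher rank within the profile, and not a higher absolute amount of the mark.

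H3K27me3 is placed by Polycomb-repressive complex 2 and is bound by the chromodomain of Polycomb, a subunit of PRC1, in domains of silenced developmental genes. H3K27me2 is a product of the same enzyme and covers much of the rest of the inactive genome. SUUR protein travels with replication forks and slows them in late replicating chromatin of polytene chromosomes, so that some regions stay under-replicated in wild type glands. SSRs (SuUR-sensitive regions) are regions that had been detected as losing H3K27me3 in SuUR mutants, and SNRs (SuUR-non-sensitive regions) are strongly marked regions bound by Polycomb that keep it. Both lists were obtained on earlier ChIP-chip profiles and are used here only to place the windows.

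In the 418 windows, wild type values lay between −1.80 and 1.055 with a median of −0.265. SuUR values lay between −0.41 and 2.025 with a median of 0.46. Over all arm windows the median was −0.095 for wild type, against −0.04 for SuUR. The median member thus stood at percentile 21.9 of arm windows in wild type and at percentile 90.0 in SuUR mutants. The difference, wild type minus SuUR, had a median of −0.675 and reached −2.235, while its median over all arm windows was −0.075, and 62.6% of arm windows were higher in SuUR mutants by any amount.

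Relative to the arm median of the same genotype, members had a median of −0.17 in wild type against 0.50 in SuUR mutants. The SuUR value was the farther of the pair from its arm median in 300 windows (71.8%), and the wild type value in 117. In 294 windows (70.3%) the SuUR value was above and the wild type value below the arm median. In 97 windows both were at or above the median, and in 27 windows both were at or below it. The opposite windows, higher in wild type by 0.6 or more, had medians of 0.67 in wild type and −0.205 in SuUR mutants relative to the arms. Arm values reach farther above the median than below it (from −0.675 to 2.475 around −0.04 in SuUR mutants), and the members were chosen on these same values, so nothing is read from which genotype stood farther from the arm median.

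Most members were poor in H3K27me3 in wild type, with 87.6% of them below 0, against 65% of all arm windows. In SuUR mutants 8.13% of members were below 0, against 56.2% of all arm windows. The signal was below 0 in wild type and above 0 in SuUR mutants in 329 windows (78.7%). The share of all arm windows with this change of sign was not computed, and choosing on the difference favours it. In 37 windows wild type was below 0 and SuUR at or below 0, and in 52 windows SuUR was above 0 and wild type at or above 0. Wild type values of −0.5 or less were found in 87 members (20.8%), against 3.73% of all arm windows. Wild type values of 0.5 or more were found in 10 members (2.39%), against 6.36% of all arm windows. In SuUR mutants 176 members (42.1%) reached 0.5 and 16 reached 1, whereas 9.04% of all arm windows reached 0.5. Among arm windows with a wild type level between −1 and −0.5, 11.3% were members, against 1.86% between −0.25 and 0, 0.58% between 0.25 and 0.5 and 0.829% above 0.5. A low wild type value makes a difference of this sign easier to reach, so this order follows in part from the rule.

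**Figure D1:**
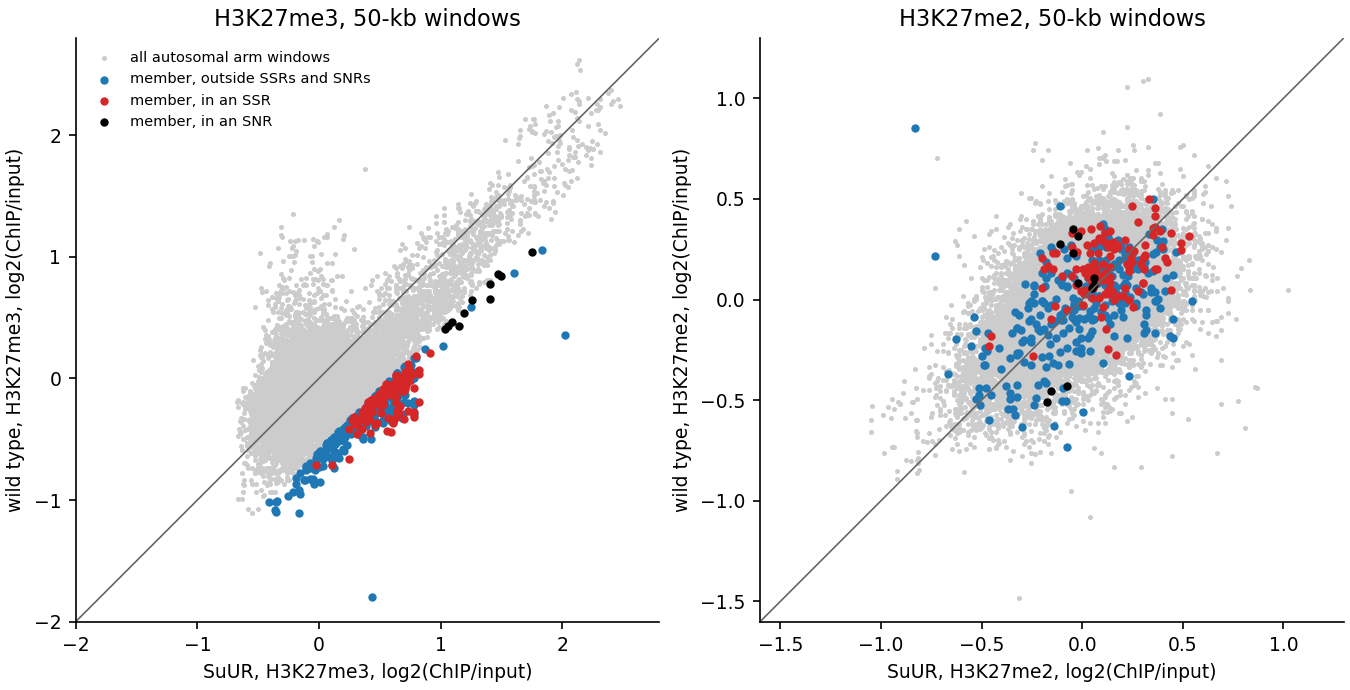
Wild type (vertical) against SuUR (horizontal) log2(ChIP/input) in autosomal arm windows, for H3K27me3 on the left and H3K27me2 on the right. H3K27me3 was available in 19230 windows (418 members) and H3K27me2 in 19227 (417 members). Members are coloured by their place in SSRs or SNRs. They form a band along the rule's edge for H3K27me3, with a median difference of −0.675, and lie on both sides of the diagonal for H3K27me2, with a median difference of 0.

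H3K27me2, measured in other ChIP and input libraries of the same genotypes, was not used to choose the windows. It was available in 417 members, with higher and lower values in SuUR mutants in nearly equal numbers. Members had a median H3K27me2 signal of 0.06 in wild type, within a range from −0.73 to 0.855. In SuUR mutants it was 0.05, within a range from −0.83 to 0.545. All arm windows together had an H3K27me2 median of 0.005 for either genotype. The median member stood at percentile 59.5 of arm windows for wild type, against 58.5 for SuUR. The median difference was 0 (SD over windows 0.23), equal to that of all arm windows. H3K27me2 was higher in SuUR mutants in 207 members, or 49.6%, and in 49.2% of all arm windows. It was higher in wild type in 205 members, or 49.2%, and in 49.8% of arm windows. Differences within 0.2 in either direction were found in 270 members (64.7%) and in 64.8% of arm windows. These shares were thus close to the background of the arms in each case, whereas the median levels of members were slightly above it.

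A difference of 0.6 or more in both marks was rare. Only 4 members (0.959%) were also higher in SuUR mutants by 0.6 or more in H3K27me2, against 0.661% of arm windows. These were chosen after their values were seen. The largest of them, on 3R with its centre at 10505000, had H3K27me2 of −0.73 in wild type and −0.075 in SuUR mutants, beside H3K27me3 of −0.325 and 0.275. The other 3 lay on 3L with centres at 2450000, 7875000 and 17760000, and their H3K27me2 differences were between −0.64 and −0.615. In the opposite direction 2 members (0.48%) passed 0.6 in H3K27me2, against 0.546% of arm windows. Both lay within 50 kb of a stretch of the arm for which the profiles hold no values, on 2L with the centre at 21440000 and on 3L with the centre at 19760000. Across 1925 arm windows that do not overlap, Pearson's r between the H3K27me3 and H3K27me2 differences was 0.000429. Over the 417 members it was −0.199, and it was 0.0231 over the 413 of them that are not within 50 kb of a stretch without values, so the value over members rests on 4 windows. These windows share the 4 profiles and are not replicates, and no p-value is attached. The rule also holds the H3K27me3 difference of members at −0.6 or less. With this restricted range, r over members cannot show whether both marks changed together.

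Members occurred on all 4 arms, from 1.91% of windows on 2L (87 windows, 36 runs) to 2.77% on 2R (117 windows, 39 runs). On 3L there were 99 members (2.02%, 42 runs) and on 3R 115 (2.06%, 47 runs). The opposite windows were less even, with 91 on 2L, 44 on 2R, 128 on 3L and 3 of 5570 on 3R. Many of them lay in a few 1-Mb bins towards the pericentric ends. The bin starting at 22 Mb on 2L held 36, that at 2 Mb on 2R held 33, and those at 23 and 24 Mb on 3L held 54 and 60. Another 36 lay in the bin starting at 17 Mb on 2L, away from that end. Taking all windows, the difference had a median of −0.065 on 2L, −0.085 on 2R, −0.065 on 3L and −0.09 on 3R. Of 98 bins of 1 Mb on these arms, 76 held a member and 13 held 10 or more, with 173 members in these 13 bins. The bin from 13 to 14 Mb on 2R was the richest, with 24 members, and that from 15 to 16 Mb on 3R followed with 19. Of the 24, 13 lay between centres 13625000 and 13715000 and 8 between 13915000 and 13950000. No member lay in the 1 Mb next to the pericentric end of 2L, 2R or 3L, and 2 lay in that of 3R. Outside the autosomal arms the same difference was found in 2.27% of X windows (101 of 4452), in 6.09% of windows of heterochromatic and unplaced scaffolds (225 of 3694) and in 0 of 255 windows of chromosome 4. The distal 1 Mb held 11 members among 201 windows on 2L, 16 among 200 on 2R, 1 among 201 on 3L and 3 among 200 on 3R. All 11 on 2L lay between centres 695000 and 760000, and 14 of the 16 on 2R between 20440000 and 20525000. These are overlapping windows, so the counts on 2L and 2R come from few places.

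Runs were short. Of 164 runs, 71 (43.3%) consisted of 1 window, 39 of 2 windows, 37 of 3 to 5 windows and 17 of 6 or more. The longest had 12 windows. Runs whose windows overlap were joined into 129 clusters that together cover 8.295 Mb, and 106 of these clusters contain 1 run. Runs of 6 or more windows held 31.8% of the members. For the opposite windows this share was 83.1% (266 windows in 41 runs, the longest of 22 windows). Windows with an H3K27me2 difference of the same size were again in short runs, with 29.1% in runs of 6 or more for those higher in SuUR mutants (127 windows, 56 runs) and 22.9% for those higher in wild type (105 windows, 46 runs). The run lengths of members were thus nearer to those of H3K27me2 windows in either direction than to those of H3K27me3 windows higher in wild type. The latter were concentrated in the few bins given above. The sets also differ in size, with 2.17% of arm windows for members, 1.38% for the opposite windows, and 0.661% and 0.546% for H3K27me2. Whether place or these shares account for the contrast was not tested.

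**Figure D2:**
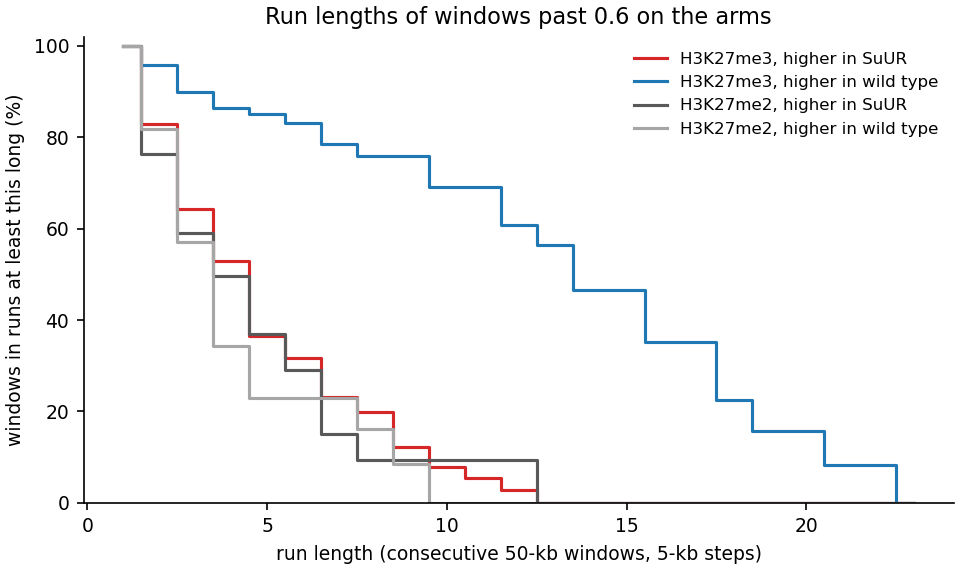
Share of windows (%) that lie in runs of at least the given number of consecutive 50-kb windows on the autosomal arms, for differences of 0.6 or more in each direction and each mark. At 6 windows the curve of members stands at 31.8%, beside 29.1% and 22.9% for H3K27me2 and 83.1% for H3K27me3 windows higher in wild type.

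The profiles were also followed along the arms on both sides of the members. At the window with the lowest difference in each of the 129 clusters, wild type had a median H3K27me3 of −0.275 and SuUR of 0.46. At a distance of 50 kb, where windows no longer overlap it, the medians were −0.095 and −0.085 in wild type and −0.0975 and −0.0425 in SuUR mutants on the left and right side. Between 100 and 200 kb away wild type stood at a median of −0.105 and SuUR at −0.03. The median difference reached a depth of −0.71 and returned to the midpoint between this value and the flanks within a span of 35 kb. The lowest windows were picked for their difference and every window averages over 50 kb, so both depth and width are a description, and over all arm windows the difference also lost most of its correlation by 50 kb (r of 0.60 at 25 kb and 0.21 at 50 kb). Compared with the mean of windows 75 to 150 kb away, the SuUR value at the lowest window was above its flanks in 115 of 129 clusters (median 0.47) and the wild type value was below its flanks in 97 (median −0.20). Both held in 83 clusters. These counts are also of windows picked for SuUR standing above wild type. They are a description, and nothing is read from which genotype departed from its flanks. In H3K27me2 the same windows stood above their flanks by a median of 0.0758 in SuUR mutants and 0.0369 in wild type (128 clusters with values).

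**Figure D3:**
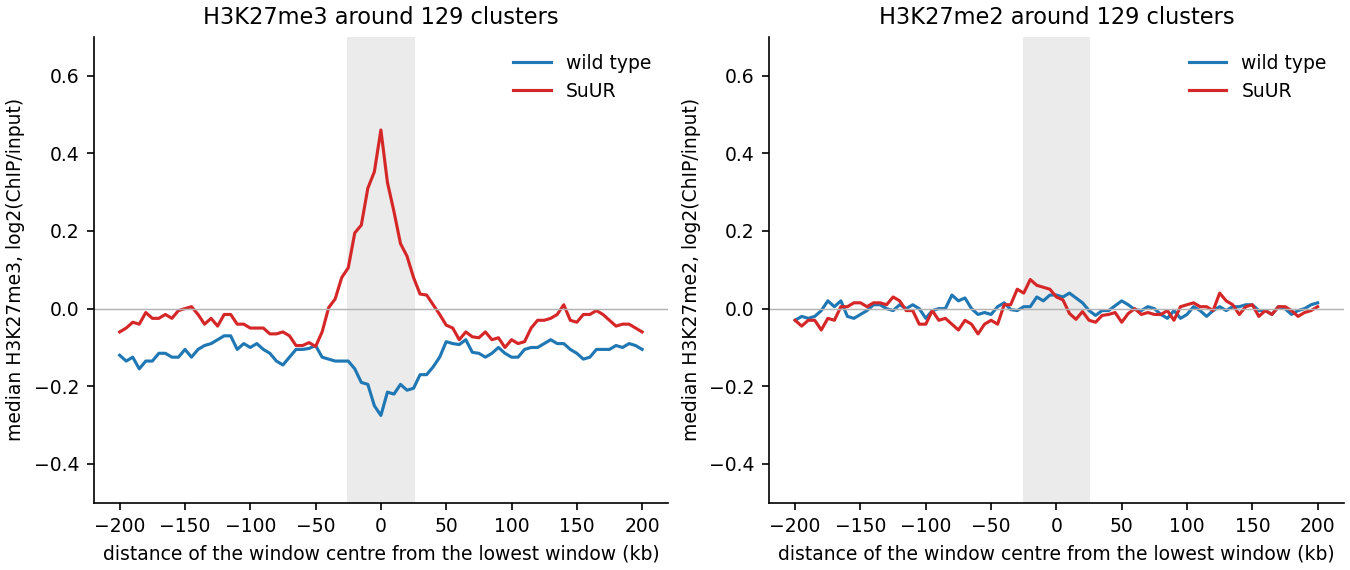
Median log2(ChIP/input) of wild type and SuUR mutants over the 129 clusters, against the distance in kb from the window with the lowest H3K27me3 difference. The grey band marks the extent of that window. H3K27me3 of SuUR mutants reaches 0.46 and that of wild type −0.275 at the centre, and at 50 kb, beyond the overlap with the central window, both are below 0, while H3K27me2 stays near 0.

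Neighbouring windows share most of their sequence, so the steps between them reflect this overlap and do not measure the spread between replicate libraries. Over the arms, the H3K27me3 difference changed by a median of 0.065 from one window to the next and by 0.215 between windows 50 kb apart, and the H3K27me2 difference by 0.065 and 0.21. The correlation of the H3K27me3 difference between windows was 0.92 at 5 kb (19223 pairs) and 0.15 at 100 kb. For the H3K27me2 difference it was 0.90 at 5 kb, −0.0173 at 50 kb and 0.0248 at 100 kb. The windows directly beside the 164 runs had a median difference of −0.51, and 1 of 327 was above 0. The threshold itself did not fall in a gap. The 14 members at exactly −0.60 had median H3K27me3 of −0.19 in wild type and 0.41 in SuUR mutants, and the 18 windows just outside at −0.595 had −0.185 and 0.41.

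The runs with the lowest differences are described next, in dm3 coordinates of the full span of their windows. The lowest 2 runs flank a stretch of 2L between centres 21450000 and 21515000 for which 12 windows hold no value. On its left, 2L from 21410001 to 21465000 (2 windows) had −1.80 in wild type, the lowest wild type H3K27me3 value of any arm window, and 0.435 in SuUR mutants at its lowest window. H3K27me2 was instead higher in wild type, at 0.855 against −0.83 in SuUR mutants, and this difference of 1.685 was the highest of all arm windows. On its right, 2L from 21490001 to 21545000 (2 windows) had 0.36 in wild type and 2.025 in SuUR mutants, and no H3K27me2 value at that window. The windows next to the left run, on the side of the stretch, had H3K27me3 differences above 0, so values beside this stretch changed sign over short distances. Without windows within 50 kb of such stretches 413 members remained, and the lowest difference among the runs named next was −1.095.

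The other runs reached between −0.91 and −1.095 at their lowest windows, and in each of them SuUR was above 0 and wild type below. 3R from 13615001 to 13695000 (7 windows, all centred in an SSR) had −0.315 in wild type and 0.78 in SuUR mutants, with H3K27me2 of 0.15 and 0.305. 2R from 13655001 to 13740000 (8 windows, outside SSRs) had −0.295 and 0.78, with H3K27me2 of −0.04 and 0.385. Here both marks were higher in SuUR mutants, with differences of −0.425 for H3K27me2 and −1.075 for H3K27me3. 2L from 17980001 to 18070000 (9 windows, all in an SSR and an under-replicated region) had −0.275 and 0.785, with H3K27me2 of 0.215 and 0.31. 2R from 13890001 to 13975000 (8 windows, all in an SSR and an under-replicated region) had −0.435 and 0.56, with H3K27me2 of 0.15 and 0.005. These runs share a SuUR value of 0.56 or more next to wild type values below the arm median, and their H3K27me2 differences take both signs.

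3L from 5855001 to 5950000 (10 windows, outside SSRs and under-replicated regions) had −0.215 in wild type and 0.78 in SuUR mutants, with H3K27me2 of 0.12 and 0.14. 3L from 14915001 to 14980000 (4 windows, in an SSR and an under-replicated region) had −0.345 and 0.62, with H3K27me2 of 0.05 and 0.02. 2R from 16965001 to 17030000 (4 windows, outside SSRs) had −0.50 and 0.425, with H3K27me2 of 0.04 and 0.05. In these 3 runs H3K27me2 differed between the genotypes by 0.03 or less at the lowest window, while the H3K27me3 differences were −0.925 or lower. Over all their windows the H3K27me2 differences ranged more widely. They ran from −0.28 to 0.175 in the first run, from −0.155 to 0.03 in the second and from −0.01 to 0.14 in the third. 3L from 6105001 to 6180000 (6 windows, 5 of them in an SSR) had −0.66 in wild type and 0.25 in SuUR mutants, with H3K27me2 of 0.075 and −0.03.

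The longest run was 3R from 14935001 to 15040000, with 12 windows outside SSRs and SNRs. H3K27me3 averaged −0.365 there in wild type against 0.38 in SuUR mutants, and its mean H3K27me2 0.15 and 0.29. The next, 2R from 20450001 to 20550000 with 11 windows, had mean H3K27me3 of −0.21 and 0.49 and mean H3K27me2 of −0.075 and 0.20. The 3L run of 10 windows and the 2L run of 9 windows named above follow. The fifth was 2L from 685001 to 775000, with 9 windows in an SSR, 8 of them also in an under-replicated region. It had mean H3K27me3 of −0.031 and 0.66 and mean H3K27me2 of 0.14 and 0.15. Of the 17 runs with 6 or more windows, 10 had a mean H3K27me2 difference below 0, that is a higher value in SuUR mutants, as did 81 of all 164 runs.

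In the profiles as deposited, the share of members in SSRs was close to that of the arms. No test was run because overlapping windows of 1 profile are not replicates. The centre of 119 members (28.5%) lay in an SSR, against 27.8% of all arm windows. Of the 150 SSRs on these arms, 33 held a member. Outside SSRs and SNRs lay 288 members (68.9%), against 66.5% of arm windows. By runs, 43 of 164 had a centre in an SSR, 3 in an SNR and 118 in neither. The opposite windows, higher in wild type by 0.6 or more, had 87.6% of their centres in SSRs and 0 in SNRs. Many of these opposite windows lay in the few bins towards the pericentric ends given above. Under-replicated regions, taken from the study's list, held 98 members (23.4%), against 21.9% of arm windows and 41.7% of the opposite windows. Among SSR windows, 2.31% were members where the centre also lay in an under-replicated region (71 windows) and 2.11% where it did not (48 windows). The same SSR can hold windows of both kinds.

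**Figure D4:**
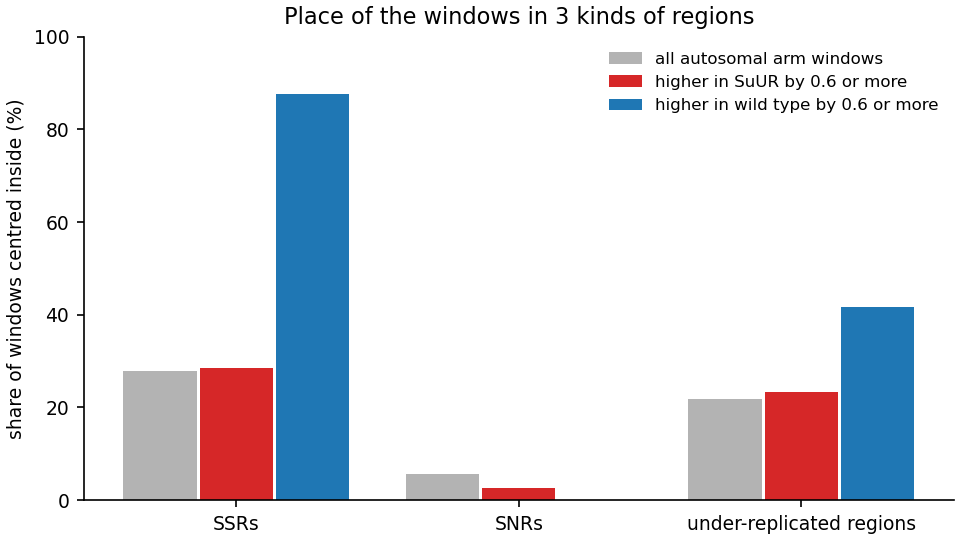
Share (%) of windows with their centre in SSRs, SNRs and under-replicated regions, for all autosomal arm windows (grey), members (red) and windows higher in wild type by 0.6 or more (blue). The shares of members in SSRs (28.5%) and under-replicated regions (23.4%) are close to those of all arm windows (27.8% and 21.9%), and 87.6% of the opposite windows lie in SSRs.

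Within SSRs the members kept the H3K27me2 level of SSRs. The median H3K27me2 of these members was 0.15 in wild type against 0.12 in SuUR mutants, and all SSR windows on the arms had 0.15 and 0.115. The median H3K27me3 was −0.185 for wild type against 0.565 for SuUR, compared with 0.035 and 0.01 in all SSR windows. Outside SSRs and SNRs, members had median H3K27me3 of −0.33 and 0.395 (arm windows outside both, −0.165 and −0.085), with H3K27me2 of −0.015 and 0.015 (−0.075 and −0.055). Members in SSRs therefore started from a higher wild type level and reached a higher level in SuUR mutants than those outside, as a description of windows chosen for the difference. The SSRs with the largest shares of members were picked after their values were seen. They were 3L from 6108740 to 6152919 (5 of 9 windows), 3R from 15085321 to 15206689 (9 of 24) and 2L from 622980 to 805459 (11 of 37). Their mean H3K27me2 differences were 0.10, −0.00021 and 0.035.

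SNRs held 11 members (2.63%), against 5.67% of arm windows, and all of them lay in 3 of the 126 SNRs with a window centre. Without 2L the share of members was 0.906%, and the share of arm windows without 2L was not computed. The value of 2.63% rests largely on the SNRs of 2L given below, each with 4 members in overlapping windows. Members in SNRs had a median wild type H3K27me3 of 0.645 and a SuUR median of 1.255, against 0.84 and 1.04 for all 1091 SNR windows of the arms, so they were below the SNR median in wild type and above it in SuUR mutants, as a description of windows chosen for this difference. On 3R from 19017630 to 19040440, 3 of 5 windows were members, and its windows averaged 0.815 for wild type against 1.42 for SuUR, with H3K27me2 of −0.42 and −0.115. On 2L from 3520840 to 3618020, 4 of 19 windows were members, with means of 0.76 and 1.18 for H3K27me3 and 0.21 and 0.054 for H3K27me2. On 2L from 18733390 to 18816960, 4 of 17 windows were members, with means of 0.46 and 0.73 for H3K27me3 and 0.0047 and 0.11 for H3K27me2. The SNR on 3R is shorter than a window, so its windows include flanking sequence. The 11 members in SNRs had wild type values from 0.405 to 1.04 and SuUR values from 1.035 to 1.755, and so make up 11 of the 16 members that reached 1 in SuUR mutants.

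The balance between members and opposite windows depended on how the genotypes were set to a common scale. The profiles as deposited gave 418 windows higher in SuUR mutants and 266 higher in wild type, so that 61.1% of the windows past 0.6 were higher in SuUR mutants. With quantile normalization redone over the 4 arms alone, the numbers were 169 and 395 (30.0%), and all 169 were among the 418. With the difference centred on its arm median of −0.075 they were 215 and 352 (37.9%). The number of members is thus tied to the normalization over all chromosomes. The median H3K27me2 difference of members and their share in SSRs stayed close to the values above under both settings (−0.0025 and −0.005, and 32.5% and 29.3%). With a difference of percentile ranks, 209 of the 418 lowest windows were shared with the members. The median H3K27me2 difference was then −0.005, but the share in SSRs fell to 19.6%, against 27.8% of arm windows. The share in SSRs thus depended on the scale.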

How the data were processed

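According to the methods, the authors mapped paired-end reads to dm3 with MOSAIK, computed RPM and expressed ChIP relative to input. The deposited log2 ratios span 50-kb windows placed every 5 kb and were quantile normalized within each antibody, which was checked on the sorted values (largest gap between genotypes 0). Pooling of libraries is not described, and sequencing depth is unknown, so no interval on a window can be given. The start coordinate in the files was taken as the window centre. Profiles were joined by position, and SuUR was subtracted from wild type. Windows at −0.6 or less on 2L, 2R, 3L and 3R were merged into runs when their centres were consecutive. SSRs (193), SNRs (158) and under-replicated regions (101) come from the study's lists. The members, lists and comparisons were chosen with earlier results of these data known. Named runs are the 10 with the lowest window difference and the 5 longest. Other named windows were chosen after their values were seen. Alternatives changed the threshold, normalization, centring, scale, arms, window overlap, weights and region overlap. Merging and overlap were tested on simulated data. No genes or sequences are given, since no dm3 annotation was used here. The 12 embryo libraries were not analysed here. Calculations used Python 3.11.15, numpy 2.4.6 and pandas 2.3.3.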

Additional observations from a re-analysis of the deposited data

How the results depend on the processing

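No paired analysis was possible because each genotype and antibody is represented by 1 profile. Of 73 alternative values, 58 stayed within the limits set for them, which were 1.5 times for counts, 1 SD over runs for medians and the 95% Wilson interval over runs for shares. The SDs, 0.30 for wild type H3K27me3 and 0.23 for the H3K27me2 difference, describe the spread between runs and are wide for a median. Leaving out 1 arm could hardly move a count past its limit, and the interval treats runs as independent. The tally is therefore no measure of stability. The rest of the alternative values were as follows. A threshold of −0.5 gave 949 windows in 338 runs, and −0.7 gave 180 windows in 89 runs. Quantile normalization redone over the autosomal arms gave 169 windows in 84 runs, of which 0.592% were centred in SNRs, and centring gave 215 windows in 101 runs. With percentile ranks, the number of windows is fixed at 418, of which 209 were shared. The shares in SSRs and SNRs were then 19.6% and 0%, against 27.8% and 5.67% of arm windows. SNR windows stand near the top of both profiles, at median percentiles of 96.6 in wild type and 96.8 in SuUR mutants. This leaves them little room for a large difference of ranks, so nothing is read from the 0%. The SNR share was 0.906% without 2L, for which the share of arm windows was not computed. It was 6.46% when any overlap of 1 bp was counted, against 11.5% of arm windows. In non-overlapping windows (39 members) 38.5% were in SSRs, against 27.7% of such arm windows. The median H3K27me2 difference stayed between −0.0125 and 0.015 under every alternative run. Leaving out windows within 50 kb of a stretch without values, added after the data were seen, left 413 windows with a median H3K27me2 difference of 0, and turned the correlation of both differences over members from −0.199 to 0.0231. Causes of these changes were not tested.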

Other observations

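On 3R, 3 of 5570 windows (0.0539%) were higher in wild type by 0.6 or more, and the highest difference on this arm was 0.68, against 1.56 on 2L, 1.515 on 2R and 1.325 on 3L. Wild type H3K27me3 values of −1 or less were found in 10 arm windows, and 7 of these were members, against 2.17% of all arm windows. A low wild type value makes a difference of this sign easier to reach, so this follows in part from the rule. Some of the 7 windows overlap each other. Those on 2L centred at 21435000 and 21440000 lie beside a stretch without values. The X windows higher in SuUR mutants by 0.6 or more formed 41 runs, the longest of 8 windows, with 26.7% of them in runs of 6 or more.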
